A study of Mus musculus with 412 samples.

Results

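Uts2b and 8 further genes, Spp1, Igf1, Hpse, Col11a1, Ctla2a, Blnk, Dgkb and Gper1, were followed through single colonic sensory neurons of the mouse. They are 9 of the 45513 genes in the deposited table, and were chosen as markers on the values of these same neurons, so the segment difference they share is described below and was not tested. Colon-projecting neurons of C57BL/6J mice had been labelled with Fast Blue (FB), a tracer that nerve endings take up and carry back to the cell body. At 3 to 10 days after injection into the colon wall, dorsal root ganglia (DRG) were dissociated in separate cultures for the thoracolumbar levels from T10 to L1 (TL) and the lumbosacral levels from L5 to S2 (LS), and FB-labelled neurons were picked singly for Smart-seq2. The mice were healthy and untreated apart from the tracing, and the labels give no age. The table held 158 LS and 167 TL neurons in 6 library plates, with 416048 to 12059074 recovered reads per neuron. The study left out some of these neurons for satellite glia transcripts before its clustering, and they are kept here. No label ties a neuron to a mouse or a culture, so LS and TL each count as 1 sample, no p-value was computed, and intervals cover counting error only.

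The members were read in neurons set apart by Piezo2, a mechanically gated ion channel, and Gfra3, the co-receptor for artemin carried by many peptidergic neurons. Values are deposited values taken off the log2 scale and rescaled to a sum of 1000000 in each neuron, written below as TPM. They are relative to gene length, so levels can be compared between genes. Reference neurons had Piezo2 at 10 TPM or more and Gfra3 below 10. They were 65 of the 158 LS neurons (41.1%) and 55 of the 167 TL neurons (32.9%), with a median of 3244840 and 2831677 reads. Among LS neurons with Gfra3 below 10, the highest Piezo2 value left out was 9.60 and the lowest kept was 13.2 TPM. Among TL neurons these values were 8.75 and 10.9. Among neurons with enough Piezo2, the highest Gfra3 value kept was 4.31 in LS and 9.63 in TL, and the lowest left out was 36.4 in LS and 10.98 in TL. A member counts as present in a neuron at 10 TPM or more.

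The pelvic nerve carries the axons of LS neurons and the splanchnic nerve those of TL neurons, and both signal stretch, fullness and pain from the colon. Piezo2 opens when the membrane is deformed and serves touch, proprioception and the sensing of distension in hollow organs. The 9 members have unlike roles. Uts2b, Spp1 and Igf1 encode secreted factors, Hpse and Col11a1 an enzyme and a structural protein of the extracellular matrix, and Ctla2a an inhibitor of cathepsin-like proteases. Blnk and Dgkb encode signalling proteins of the cytoplasm, and Gper1 a receptor.

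Uts2b (ENSMUSG00000056423, GRCm38 chr16:27353322-27370239, minus strand) encodes the precursor of urotensin 2B, a short cyclic peptide cut from the end of the precursor. The related peptide urotensin 2 comes from Uts2 and acts on the same receptor, Uts2r. The ends of both coding sequences are shown because Uts2b was abundant and Uts2 was not, although the peptides are close relatives. Capitals mark the last 8 codons and lower case the stop codon, from GENCODE M21 transcripts. For Uts2b the capitals lie at chr16:27353715-27353737 with 1 further base across an intron at 27360939, minus strand, and for Uts2 at chr4:151001654-151001677, plus strand. Of the 24 bases in capitals, 16 were the same (66.7%).
Uts2b: GCTTGTTTTTGGAAGTACTGTGTCtga
Uts2: GAGTGCTTCTGGAAATACTGCATTtga

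The sequence before the start of Uts2b is shown with that of Hpse, since these were present in nearly the same neurons. Both are the 250 bases before the RefSeq start on GRCm38.p6, at chr16:27370240-27370489 and chr5:100719717-100719966, each on the minus strand and free of GENCODE exons. Capitals mark the motif TATAAA, the TATA box core, on either strand, which overlaps itself in Uts2b and whose forward copy begins 56 bases before the start. The motif was in 12.4% of 32851 windows of this length. It was in at least 1 window of Uts2b, Spp1, Ctla2a and Gper1, and in none of Hpse, Blnk, Dgkb, Igf1 and Col11a1. The homeodomain core TAATTA was in 1 of 2 windows of Spp1 and in 4.84% of all. The search covered both strands, and a match describes letters only.
Uts2b: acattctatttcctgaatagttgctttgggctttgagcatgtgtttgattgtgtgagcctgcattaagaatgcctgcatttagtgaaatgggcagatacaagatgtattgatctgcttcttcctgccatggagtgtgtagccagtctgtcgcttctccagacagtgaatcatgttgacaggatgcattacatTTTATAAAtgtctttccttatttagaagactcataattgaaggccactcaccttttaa
Hpse: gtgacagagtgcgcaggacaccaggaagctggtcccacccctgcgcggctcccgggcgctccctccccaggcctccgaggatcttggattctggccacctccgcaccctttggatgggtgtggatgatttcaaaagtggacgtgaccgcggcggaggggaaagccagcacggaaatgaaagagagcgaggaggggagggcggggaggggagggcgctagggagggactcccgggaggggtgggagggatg

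Uts2b was present in 41 of 65 LS reference neurons (63.1%, exact Clopper-Pearson 95% interval 50.2% to 74.7%) and in 0 of 55 TL reference neurons, which allows a share of up to 5.45%. Its value in LS reference neurons ran from 0 to 8274 TPM with a median of 754, and in TL reference neurons the highest value was 1.16. The distribution in LS had a gap, in that 20 neurons were at 0, 4 were above 0 but below 10, and the lowest neuron with Uts2b present was at 56.3 TPM. Where present, the median was 3183 TPM. Its mean of 2294 ± 2751 TPM (SD, n = 65) was the 34th highest of 30847 genes above 0 in LS reference neurons. Uts2b was present in 2 of 93 remaining LS neurons and 2 of 112 remaining TL neurons.

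Spp1 (ENSMUSG00000029304, chr5:104435118-104441050, plus strand) encodes osteopontin, a secreted phosphoprotein that binds integrins and CD44. It was present in 38 of 65 LS reference neurons (58.5%, 45.6% to 70.6%), with values from 0 to 12933 TPM and a median of 75.8. In TL reference neurons it was present in 9 of 55 (16.4%, 7.77% to 28.8%), with values up to 120 and a median of 0. Spp1 was therefore not absent from the other groups, being present in 9 of 93 remaining LS and 18 of 112 remaining TL neurons, but at lower levels. The median among neurons with Spp1 was 2123 TPM in LS reference neurons, 31.8 in TL reference neurons, 28.6 in remaining LS neurons and 20.6 in remaining TL neurons.

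Igf1 (ENSMUSG00000020053, chr10:87858265-87937042, plus strand), insulin-like growth factor 1, was the lowest of the 9 in mean level. Its values in LS reference neurons ran from 0 to 74.8 TPM with a median of 7.53, and it was present in 28 of 65 (43.1%, 30.8% to 56.0%). In TL reference neurons 1 of 55 had it, at 21.7 TPM. A further 18 LS reference neurons had Igf1 reads below the threshold, as 46 were above 0, so its share depends on where the threshold lies.

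Hpse (ENSMUSG00000035273, chr5:100679484-100719716, minus strand) encodes heparanase, which cuts heparan sulfate chains. It was present in 42 of 65 LS reference neurons (64.6%, 51.8% to 76.1%) with values from 0 to 154 TPM and a median of 26.2. No TL neuron had it, and the highest TL reference value was 5.45 TPM. Col11a1 (ENSMUSG00000027966, chr3:114030540-114220718, plus strand), a chain of the fibrillar collagen XI, was present in 40 of 65 (61.5%, 48.6% to 73.3%) with values from 0 to 79.1 and a median of 15.8. It was also present in 7 of 55 TL reference neurons (12.7%, 5.27% to 24.5%), up to 40.9 TPM, and in 0 of 93 remaining LS neurons. Both matrix genes overlapped between the reference groups at their low end, and above 10 TPM Col11a1 overlapped and Hpse did not.

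Ctla2a (ENSMUSG00000044258, chr13:60934155-60936625, minus strand) was present in 29 of 65 LS reference neurons (44.6%, 32.3% to 57.5%), with values from 0 to 209 TPM and a median of 3.67. It was present in 3 of 55 TL reference neurons (5.45%, 1.14% to 15.1%), where the highest value, 3167 TPM, was above every LS value. That TL neuron of plate 3 also held Cldn5 at 19217, Pecam1 at 857 and Cdh5 at 685 TPM, which mark endothelial cells, and Snap25, a neuronal gene, at 77.9. Without it the TL mean of Ctla2a was 5.30 in place of 62.8 TPM, against 42.8 in LS. Another of the 3 TL neurons with Ctla2a, at 19.6 TPM, had Cldn5 at 353 and Snap25 at 1039. This neuron also counted among those with Spp1, at 61.4 TPM. Ctla2a and its neighbour Ctla2b share 96.2% of 342 aligned coding bases, so reads could be split between them. Ctla2b was present in no LS reference neuron, with a highest value of 5.33 TPM.

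Blnk (ENSMUSG00000061132, chr19:40928927-40994535, minus strand), an adaptor protein best known downstream of the B cell receptor, was present in 26 of 65 LS reference neurons (40.0%, 28.0% to 52.9%). Its values ran from 0 to 336 TPM with a median of 5.29, and the highest of 55 TL reference values was 0.834. Dgkb (ENSMUSG00000036095, chr12:37817726-38634239, plus strand), a kinase that turns diacylglycerol into phosphatidic acid, was present in 42 of 65 (64.6%, 51.8% to 76.1%), from 0 to 136 TPM with a median of 30.8. It was present in 5 of 55 TL reference neurons, up to 18.0 TPM. Gper1 (ENSMUSG00000053647, chr5:139423151-139427800, plus strand), a G protein-coupled receptor that responds to oestrogen, was present in 38 of 65 (58.5%, 45.6% to 70.6%), from 0 to 400 TPM with a median of 21.7. In TL reference neurons 1 of 55 had it, at 15.1 TPM. All 3 genes had their highest values in LS reference neurons.

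By mean level in LS reference neurons the order was Uts2b, Spp1 (1826 ± 2945), Blnk (50.4 ± 89.9), Gper1 (42.9 ± 67.5), Ctla2a (42.8 ± 60.8), Hpse (38.4 ± 39.6), Dgkb (38.1 ± 36.4), Col11a1 (18.6 ± 17.9) and Igf1 (12.3 ± 14.8 TPM, SD, n = 65). Neighbours in this order differed by less than the larger of their SDs, and the step from Spp1 to Blnk was the largest. Fewest reads stood behind a present call in Ctla2a, at 5, while every Uts2b call in LS reference neurons rested on 51 or more.

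**Figure D1:**
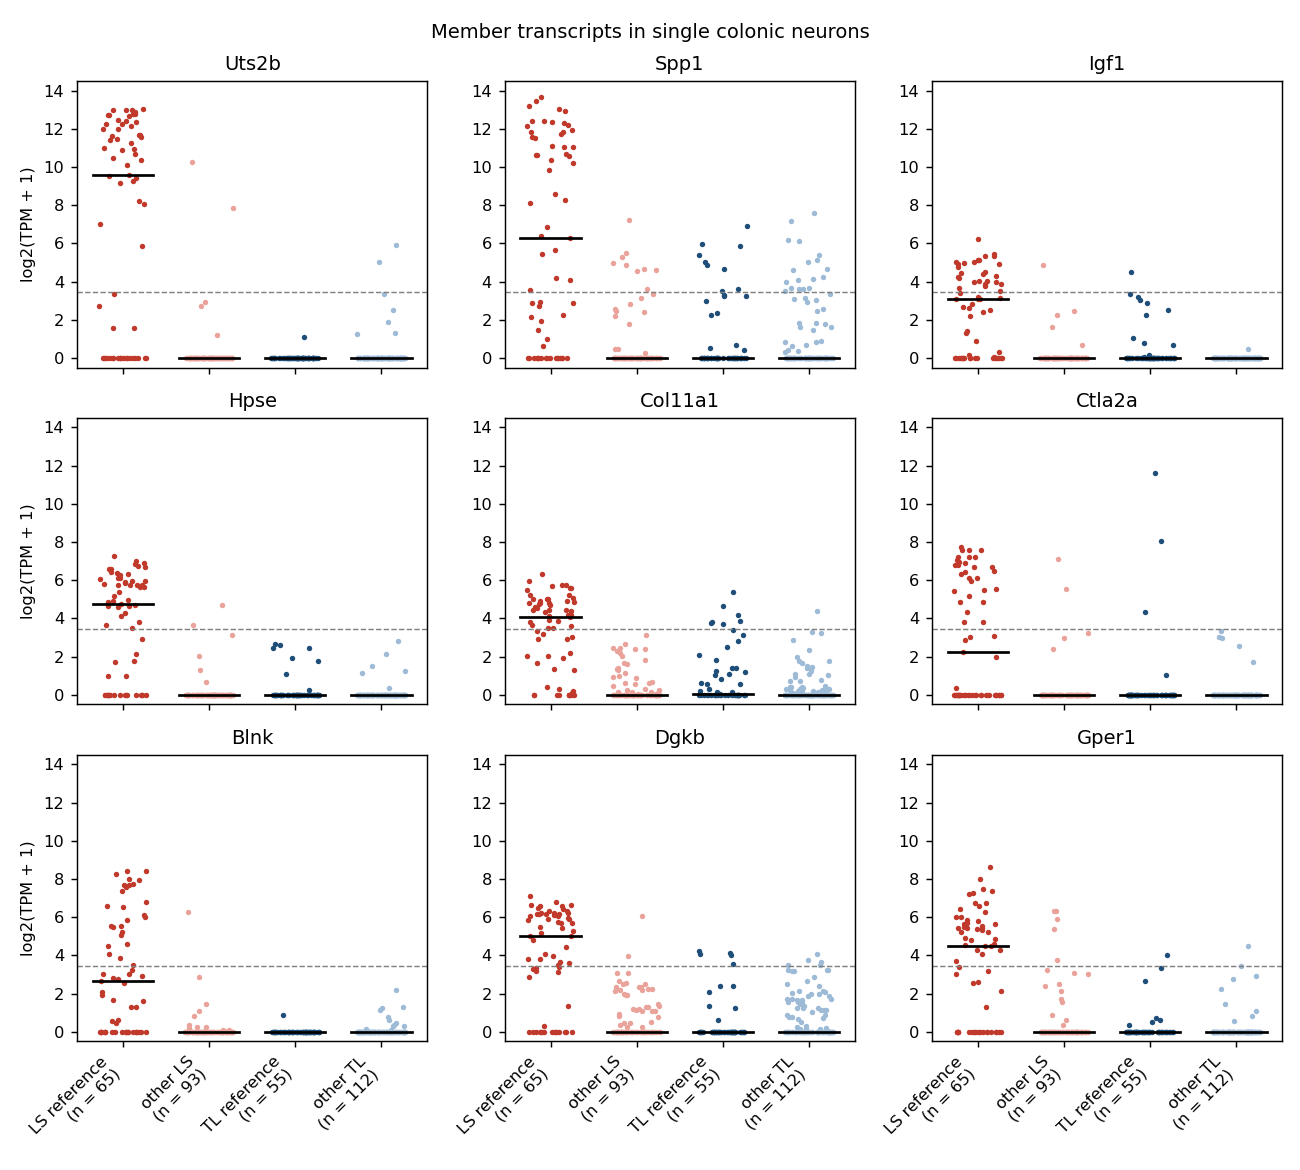
Each point is 1 neuron; the vertical axis is log2(TPM + 1), the black line is the group median and the dashed line is 10 TPM. LS reference neurons fill both the upper range and 0 for most members, while the median of the other 3 groups is at or near 0.

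The ratio of mean levels, with 1 TPM added to each mean, was at least 4-fold higher in LS than in TL reference neurons for 8 of the 9 members, and this was so for 1.45% of the 7883 genes with a mean of 10 or more in either group. This contrast chose the members, so the count is given for scale only. With 10 TPM added to each mean in place of 1, Igf1 and Col11a1 were less than 4-fold higher. The log2 ratio was 11.13 for Uts2b, 7.70 for Spp1, 5.66 for Blnk, 4.80 for Gper1, 4.74 for Hpse, 3.87 for Dgkb, 2.62 for Igf1 and 2.21 for Col11a1, against a median of 0.03 over all 7883 genes. For Ctla2a it was -0.54, and 2.80 without the TL neuron highest in Ctla2a. Within each of plates 2 to 6, Uts2b, Spp1, Hpse, Blnk, Dgkb and Gper1 were at least 4-fold higher in LS. Igf1 and Col11a1 were higher in LS in all 5 plates but passed 4-fold in 2, and Ctla2a was higher in 3. The share of all genes that passed 4-fold within a plate is not given, and plate 4 held only 5 TL reference neurons. Counts of plates, here and below, are therefore descriptions. Piezo2 itself had a log2 ratio of -0.35, and a mean of 58.7 ± 32.8 in LS and 75.4 ± 41.5 TPM in TL (SD).

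Within LS ganglia, all 9 members were at least 4-fold higher in reference neurons than in the 93 remaining LS neurons, as were 1.63% of 7840 genes. The members were chosen as markers on these same values, so this count too is given for scale only. The log2 ratio ran from 3.22 for Igf1 to 8.39 for Spp1. Most of the remaining LS neurons (83 of 93) had Gfra3 at 10 or more, so that this compares the Piezo2 neurons mainly with a Gfra3 population of LS ganglia.

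The number of members present per neuron gathered at both ends of its range in LS reference neurons. None was present in 9 neurons and 1 in 8, while 7, 8 and 9 members were present in 10, 11 and 11 neurons. The numbers between 2 and 6 together made up 16 of 65 neurons (24.6%). With 5 or more members there were 37 of 65 (56.9%, 44.0% to 69.2%), compared with 0 of 55 TL reference neurons, which allows up to 5.45%, 1 of 93 remaining LS neurons and 0 of 112 remaining TL neurons. No TL neuron had more than 2 members. The neurons with 7 or more members numbered 32, and in all of them Uts2b, Hpse and Dgkb were present, with Spp1 in 30, Col11a1 in 29, Ctla2a and Gper1 in 27 each, Blnk in 25 and Igf1 in 23. In the 17 neurons with 0 or 1 member, Gper1 was present in 4, Spp1 in 3 and Col11a1 in 1, and the other 6 in none. As the members were chosen as markers on these neurons, these counts are descriptions.

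**Figure D2:**
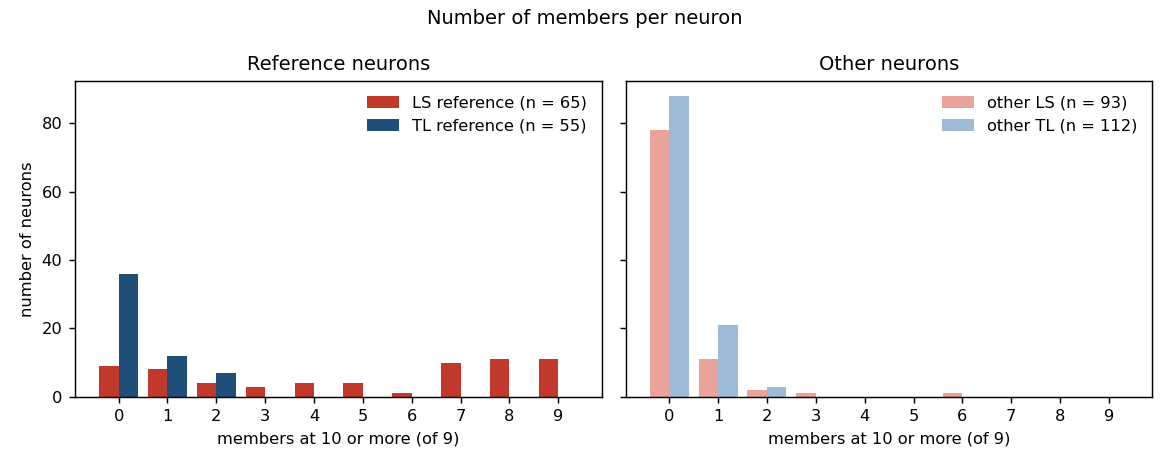
Bars give the number of neurons (vertical axis) by how many of the 9 members were at 10 TPM or more (horizontal axis), for reference neurons on the left and remaining neurons on the right. LS reference neurons gather at 0 or 1 (17 neurons) and at 7 to 9 (32 neurons), and TL reference neurons reach 2 at most.

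Neurons with many members did not have the most reads, but they had the most genes above 0. The 17 with 0 or 1 member had a median of 4428592 reads and 13550 genes above 0, the 16 with 2 to 6 had 2879915 reads and 14458 genes, and the 32 with 7 or more had 3079153 reads and 15200 genes. Median Piezo2 was 62.8, 39.2 and 58.6 TPM in the same 3 sets.

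Uts2b, Hpse and Dgkb formed the closest set by presence. All 3 were present in 39 of the 65 LS reference neurons, none in 20, and 1 or 2 of them in 6. Of the 41 neurons with Uts2b, 40 had Hpse and 40 had Dgkb, and 40 of the 42 neurons with Hpse had Uts2b. Blnk and Ctla2a were present only within the Uts2b neurons, in 26 and 29 of the 41, and Igf1 in 27 of them and 1 neuron outside. Every one of the 28 neurons with Igf1 had Hpse. Spp1 was less bound to the set, with 33 of its 38 neurons also having Uts2b, and Gper1 least, with 30 of 38.

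Over the 65 LS reference neurons, Spearman's rho between pairs of members had a median of 0.64 and ran from 0.31 for Igf1 with Gper1 to 0.87 for Uts2b with Blnk. It was above 0.5 in 34 of 36 pairs, and above 0 within each of plates 2 to 6 in 30 of 36. The members were chosen as markers on these neurons, the neurons of a plate share a library pool and all values share the rescaling. These correlations are therefore descriptions. With Uts2b, rho was 0.86 for Hpse, 0.78 for Ctla2a and Dgkb, 0.77 for Spp1, 0.73 for Igf1, 0.55 for Gper1 and 0.53 for Col11a1. Piezo2 was not ordered with the members, with rho from -0.07 for Gper1 to 0.26 for Col11a1 and -0.01 for Uts2b. In the 41 neurons with Uts2b, Piezo2 ran from 16.3 to 89.5 TPM (median 56.4), and in the 24 without it from 13.2 to 241 (median 53.4).

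**Figure D3:**
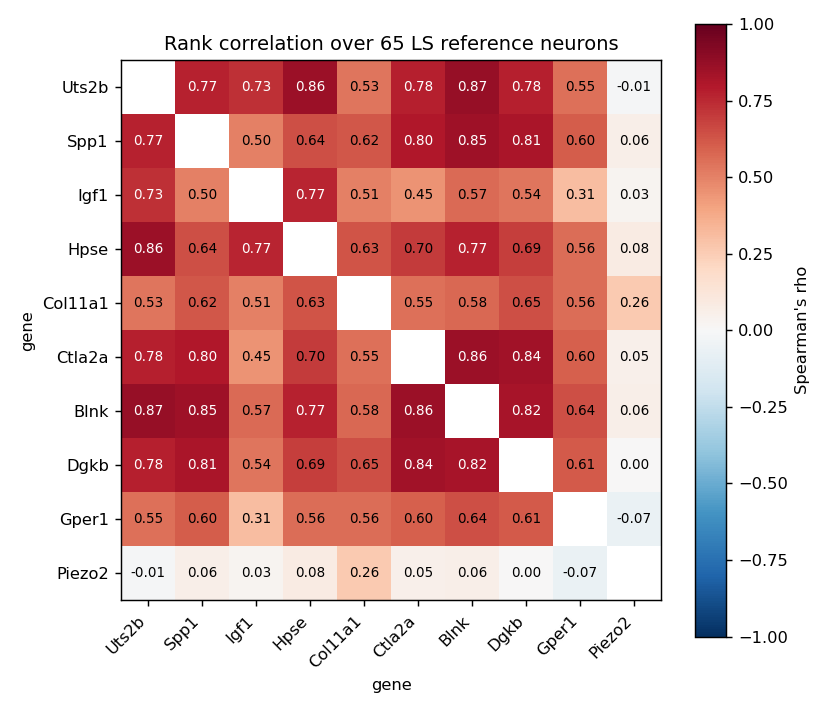
Each square is Spearman's rho between the gene of its row and that of its column over 65 LS reference neurons, on a scale from -1 (blue) to 1 (red). The 9 members are positive with each other, from 0.31 to 0.87, and the line of Piezo2 stays between -0.07 and 0.26.

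**Figure D4:**
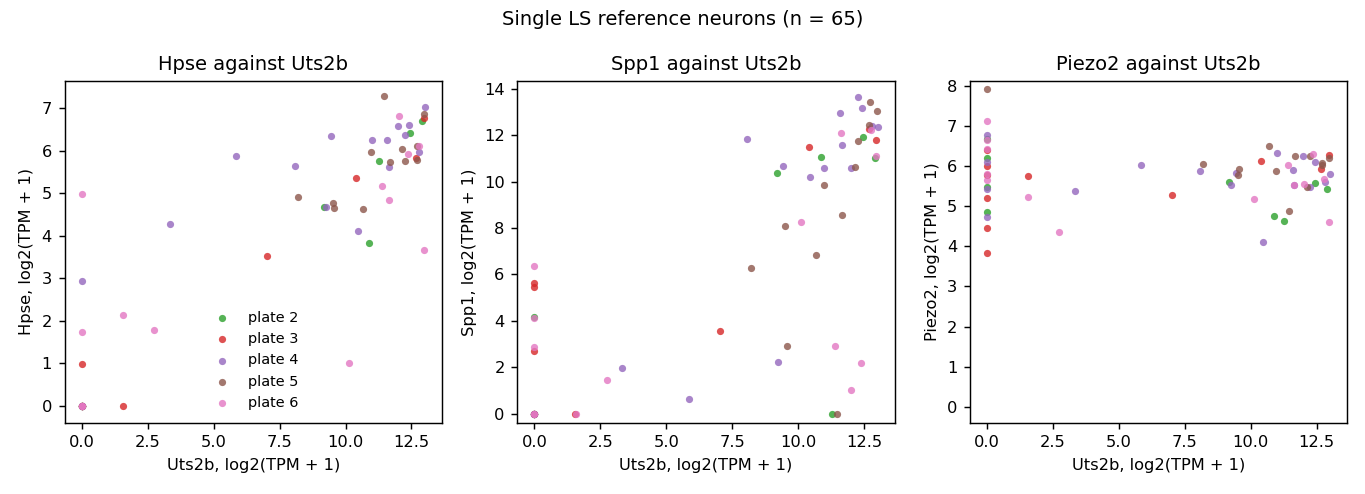
Each point is 1 of 65 LS reference neurons coloured by library plate, with Uts2b on the horizontal axis and Hpse, Spp1 or Piezo2 on the vertical axis, all as log2(TPM + 1). Hpse and Spp1 are high mainly where Uts2b is high, whereas Piezo2 does not follow Uts2b, and its highest values, up to 241 TPM, are in neurons without Uts2b.

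Set against the 24 LS reference neurons without Uts2b, the 41 with it were at least 4-fold higher in the mean of 0.516% of 7946 genes. Uts2b defined the groups, and 7 of the other 8 members were among those genes. The members were chosen as markers on these same neurons, so this count is given for scale only. Blnk had a median of 32.4 TPM (0 to 336) with Uts2b and 0 (0 to 5.94) without, and Ctla2a 46.3 (0 to 209) and 0 (0 to 0.302). Hpse had a median of 55.9 (1.02 to 154) with and 0 (0 to 30.6) without, and Dgkb 61.9 (9.45 to 136) and 0 (0 to 26.6). Every one of these ranges overlapped between the groups at its low end. Col11a1 fell short of 4-fold, with a mean of 25.3 ± 18.2 and 7.23 ± 9.92 TPM (SD).

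The share of LS reference neurons with a member differed between library plates. Plate 5 had the highest share for each of the 9 members, with Uts2b and Hpse present in 92.3% of 13 neurons. Uts2b was present in 36.4% of 11 neurons in plate 3, where Igf1 was present in 9.09%. For 5 or more members plate 5 had 12 of its 13 neurons (92.3%), plate 4 had 12 of 18, plate 2 had 4 of 9, plate 3 had 4 of 11, and plate 6 came lowest with 5 of 14 (35.7%). Plate 1 held no LS neuron. In every plate with LS neurons, the LS share was above the TL reference share for each of the 9 members. In plate 3, for example, Ctla2a had 27.3% in LS and 20.0% in TL, and Spp1 54.5% and 40.0%. No TL reference neuron had Uts2b, Hpse or Blnk, so any LS neuron with them met this. The members were chosen on these neurons, so this is a description. Which mice and cultures went into each plate is not in the labels, so plate, mouse and culture cannot be told apart.

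**Figure D5:**
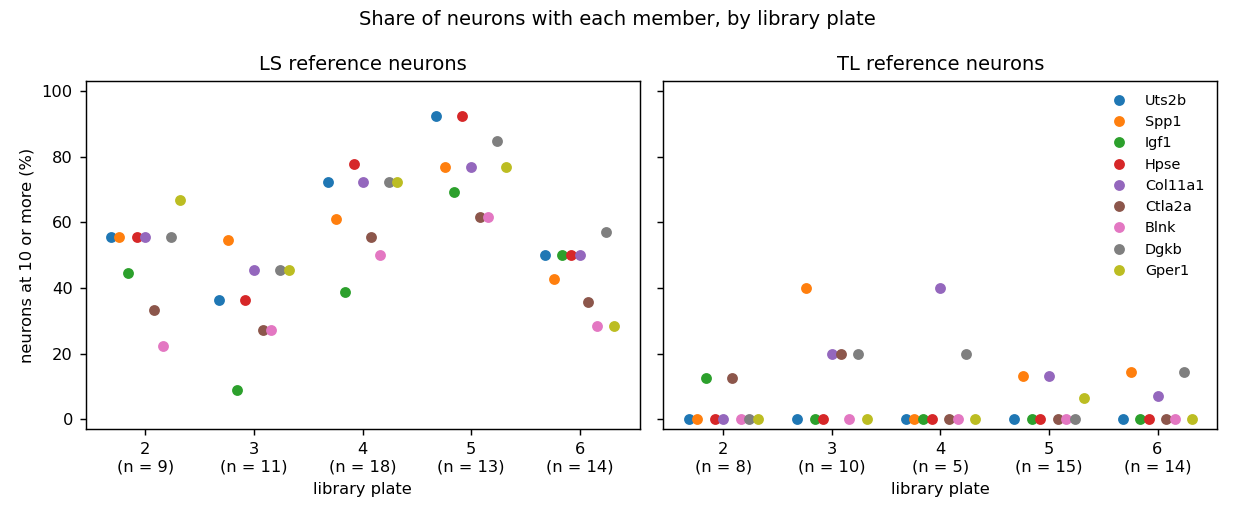
Points give the percentage of neurons at 10 TPM or more (vertical axis) for each member in each library plate (horizontal axis, with the number of neurons), in LS reference neurons on the left and TL reference neurons on the right. LS shares are highest in plate 5, up to 92.3%, and TL shares reach 40.0% for Spp1 in plate 3 and for Col11a1 in plate 4.

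Outside the LS reference group, few neurons had Uts2b. A remaining LS neuron of plate 3, left out by its Piezo2 of 8.44 TPM and with Gfra3 at 0, had 6 members, with Uts2b at 1241, Blnk at 75.6, Dgkb at 66.7, Gper1 at 58.2, Ctla2a at 45.8 and Spp1 at 22.8 TPM. Another of plate 4, with Piezo2 at 2.91 and Gfra3 at 0, had Uts2b at 229, Igf1 at 28.8 and Dgkb at 14.7. The TL neurons with Uts2b were different in that both were rich in Gfra3, at 771 and 1886 TPM. They had Uts2b at 58.6 in plate 4 and 31.4 in plate 5, together with low values of Hpse (1.37 and 3.44), Blnk (1.21 and 3.48) and Ctla2a (2.34 and 4.89). The neuron of plate 4 also had Spp1 at 192 TPM.

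The genes most like Uts2b were ranked by rho among genes present in at least 10% of neurons. Ranks of members are descriptions, since the members were chosen on these neurons. Over the 65 LS reference neurons and 10071 genes, Blnk and Hpse came first and second, Ctla2a 7th and Dgkb 8th, and the median rho of all genes was 0.02. The others of the first 10 were Rasd2 (0.85), Fstl5 (0.84), Rab3a (0.81), Klhl13 (0.78), Epha6 (0.78) and Slc29a4 (0.77). Rasd2, a small GTPase, had a mean of 42.7 TPM with Uts2b and 0.924 without, and 0.522 in TL reference neurons. Slc29a4, a transporter of monoamines, had 709 and 143, and Rab3a, a GTPase of synaptic vesicles, 987 and 743, so that a high rho did not need a large ratio. At the other end were Nsg2 (-0.86), Gm13889 (-0.76), Nrp2 (-0.73), Pik3r1 (-0.71) and Tgfb1i1 (-0.71). Nsg2, an endosomal protein of neurons, was present in all 24 neurons without Uts2b, from 10.7 to 68.0 TPM, and in 11 of 41 with it, from 0 to 59.3.

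Over all 158 LS neurons and 10309 genes the first 10 were Gng13 (0.90), Hpse (0.89), Igf1 (0.87), Blnk (0.83), Maob (0.81), Syde1 (0.80), Meox2 (0.80), Fibin (0.79), Hrasls (0.79) and Dgkb (0.79), with a median of 0.04 over all genes. Gng13, a G protein gamma subunit, was present in 40 LS reference neurons and no TL reference neuron, and Maob, which breaks down amines, in 50 and 23. Meox2, a homeobox gene, had a mean of 10.1 TPM with Uts2b and was listed at 0 in every LS reference neuron without it. With the number of members in place of Uts2b, the first 10 of 10071 genes over LS reference neurons were Slc29a4 (0.87), Uts2b (0.86), Blnk (0.86), Dgkb (0.85), Rasd2 (0.84), Smim18 (0.83), Cacng5 (0.83), Spp1 (0.83), Scel (0.83) and Fstl5 (0.83). For a member, the number was that of the other 8.

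Receptors and partners of the members were read from lists. Of the urotensin genes, Uts2r, the receptor, was present in no neuron of any group, with a highest value of 2.21 TPM in LS reference neurons and 6.14 in the remaining LS neurons, and Uts2 was present in 2 of 65 (mean 1.603 ± 3.59, SD). Neither of these reached a mean of 10 in a reference group. Among 10 receptor genes for osteopontin, 2 reached a mean of 10, the integrin subunit Itgb1 (111 in LS and 119 in TL) and Cd44 (76.6 and 91.1 TPM), and neither differed 4-fold. The partners of Itgb1 at integrins that bind osteopontin were low, with Itgav at 2.45 and Itga9 at 2.05 TPM in LS.

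Of the 18 IGF system genes other than Igf1, 4 reached a mean of 10, and of these 4 none was 4-fold higher in LS and 2 were 4-fold lower, as were 2.03% of the 7883 genes. Igfbp2, a binding protein for IGFs, had a mean of 1.15 in LS and 43.2 TPM in TL reference neurons (log2 ratio -4.36) and was 4-fold lower in each of 5 plates. Igfbp7 had 9.46 and 47.6 (-2.22), but in 4 of 5 plates its mean was higher in LS. It was present in 16 of 65 LS and only 2 of 55 TL reference neurons, so its TL mean rests on few neurons. Irs2 had 24.3 and 31.6 and Igfbp4 22.4 and 25.9. The IGF1 receptor Igf1r was low in both, at 3.85 and 6.52 TPM. Stc1, stanniocalcin 1, which inhibits an enzyme that cuts IGF binding proteins, did not reach a mean of 10 but had 7.58 in LS and 0.0174 TPM in TL reference neurons (log2 ratio 3.08) and was 4-fold higher in LS in 4 of 5 plates. It was present in 19 of 41 neurons with Uts2b (mean 12.02 ± 13.5, SD) and listed at 0 in all 24 without it.

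Among 9 steroid receptors other than Gper1, 3 reached a mean of 10 and 2 were 4-fold higher in LS reference neurons, against the 1.45% of all genes given above. They were Esr1, the nuclear oestrogen receptor alpha, at 36.2 in LS and 2.98 TPM in TL (log2 ratio 3.22), and Pgr, the progesterone receptor, at 10.01 and 1.28 (2.27). Esr1 was higher in LS in all 5 plates and passed 4-fold in 4, and Pgr passed it in 2. Esr1 was present in 40 of 41 LS reference neurons with Uts2b (median 41.5, 8.09 to 79.8) and in 15 of 24 without (median 25.6, 0 to 75.7). Neither gene was confined to LS reference neurons. Among the 93 remaining LS neurons, Esr1 was present in 47 (mean 14.1 TPM) and Pgr in 15 (mean 5.73). In remaining TL neurons their means were 1.52 and 1.20 TPM.

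Of 31 heparan sulfate genes other than Hpse, 15 reached a mean of 10, and of these 15 none was 4-fold higher in LS and 2 were 4-fold lower (2.03% of all genes), Hs6st2 (1.47 in LS and 21.9 TPM in TL) and Sdc1 (5.97 and 29.6). Hs6st2, a sulfotransferase, was 4-fold lower in 3 of 5 plates and higher in 1, and Sdc1, a core protein, was 4-fold lower in 3. Next in size of ratio among these 15 were Gpc5, a core protein (4.05 and 13.2), and the sulfotransferase Hs3st1 (24.5 and 8.47). Sdc4 (72.2 and 107) and Gpc1 (37.1 and 36.6), core proteins whose chains heparanase can cut, were the most abundant of the list in LS.

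Of 9 diacylglycerol kinases other than Dgkb, 7 reached a mean of 10 and none differed 4-fold. Dgkh was the most abundant, at 270 in LS and 174 TPM in TL. Dgka had 26.2 and 11.01, Dgki 16.1 and 32.0, and Dgkq 10.8 and 6.17. Dgkb was the only kinase of the 10 in the list to differ 4-fold between the reference groups. In the pathway of Blnk, 3 of 13 other genes reached a mean of 10, namely Grb2 (71.2 and 68.4), Plcg1 (17.3 and 13.5) and Nck1 (11.5 and 10.7), and none differed 4-fold. Of the kinases that act with Blnk in B cells, Lyn had a mean of 4.83 TPM and was present in 6 LS reference neurons, Syk had 0.181, and Btk was listed at 0 in all of them, as was the exchange factor Vav1. None of 10 fibrillar collagens other than Col11a1 reached 10. Of these, Col11a2 and Col5a1, which can pair with it, had 0.332 and 0.157 TPM in LS. Col2a1 had 0.440, Col5a2 1.75 and Col5a3, the most abundant, 7.62. Of 11 further genes in the list of cathepsins, cystatins and Ctla2b, 6 reached a mean of 10 and none of these 6 differed 4-fold, among them Ctsb (682 and 1167) and Ctsl (1002 and 1823 TPM), the protease that Ctla2a is known to inhibit.

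All 8 markers of neurons had a mean of 10 or more in LS reference neurons, led by Tubb3 at 6124 TPM. Rbfox3 was present in 56 of the 65, with a mean of 16.0 with Uts2b and 50.2 without. Isl1 went the other way, with 131 and 69.8 TPM. Between the reference groups Rbfox3 had 28.7 in LS and 78.4 TPM in TL, and Isl1 108 and 57.9. The summed level of 7 neurofilament-type markers other than Spp1 had a median of 4549 TPM in neurons with Uts2b and 2167 in those without (rho with Uts2b 0.64). Nefl had means of 2603 and 1389, and Ntrk2, the receptor for BDNF, 90.4 and 57.4, while Ntrk3 had 0.0514 and 1.99 and Pvalb 2.153 and 3.98. Calca, a peptide gene of peptidergic neurons, had 11457 and 11327. The sum of 4 non-peptidergic markers had a median of 72.9 with Uts2b and 66.9 without. Most of it was P2rx3, a receptor for ATP, present in 39 of 41 neurons with Uts2b (mean 84.5) and 15 of 24 without (92.0), while Mrgprd was listed at 0 in all 41 and present in 1 of 24, at 1189 TPM. Of these 4 markers, 3 were 4-fold lower in LS than in TL reference neurons, as were 2.03% of 7883 genes. They were Mrgprd (18.3 in LS and 202 TPM in TL), Gfra2 (6.01 and 57.4) and Lpar5 (1.95 and 24.6). Among the neurofilament-type markers 1 was 4-fold lower, Ntrk3 (0.766 and 12.9). A further list of 10 genes that the study had chosen on these neurons for the same subtype was 4-fold higher in LS than in TL reference neurons in all 8 that reached a mean of 10, which is not independent evidence.

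Spp1, Igf1 and Blnk are also expressed by immune cells, and Ctla2a by endothelial cells. In LS reference neurons the macrophage markers Ptprc, C1qa, C1qc and Trem2 had means of 0.0262, 0.161, 0.0609 and 0.0877 TPM. Others of the 10 macrophage genes were higher, with Cd68 at 3.64 (3.52 in TL reference neurons), Lyz2 at 2.06 (0.462 in TL) and Csf1r at 1.34 (0.206 in TL), and Lyz2 had a mean of 3.00 with Uts2b and 0.465 without. The sum of the 10 had a median of 33.5 with Uts2b and 19.0 without. That sum came mostly from C1qb, with a mean of 23.5 in LS reference, 2.14 in TL reference, 62.4 in remaining LS and 38.3 in remaining TL neurons. All 5 B cell markers had means below 1, with Cd79a at 0.903 (2.62 in TL reference neurons), Cd79b at 0.601 (0.0241 in TL), Ms4a1 at 0.0575 and Pax5 at 0.00631. Cd79b had 0.827 with Uts2b and 0.217 without, and rho of the B cell sum with Uts2b was 0.31. Of 10 endothelial genes, 8 had a mean below 1, and the sum had a median of 39.7 with Uts2b and 36.5 without, most of it Egfl7 at 34.4. In either reference group 6 of them reached a mean of 10, and 5 of these were 4-fold lower in LS than in TL, as were 2.03% of all genes. Among them were Cldn5 (0.106 in LS and 356 TPM in TL) and Pecam1 (0.620 and 16.3), each present in 2 TL reference neurons. Of 5 fibroblast genes, Dcn had a mean of 120 in LS and 7.18 TPM in TL reference neurons and 372 in the remaining LS neurons, and the sum had a median of 0.875 with Uts2b and 2.79 without, but a mean of 132 and 107.

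Of markers of glia, the sum of 10 satellite glia genes had a median of 752 TPM with Uts2b and 532 without, but a mean of 2038 and 4301 (rho with Uts2b 0.00288), with Apoe the most abundant. The median of this sum was 636 in LS against 1622 TPM in TL reference neurons. Fabp7 had a median of 52.2 (0 to 514) with and 16.2 (0 to 6237) without. The sum of 5 Schwann cell genes, mostly Pmp22, had a median of 420 with and 1082 without (rho with Uts2b -0.39), and 524 in LS against 1464 in TL reference neurons. The part of these cell types in the values of the members was not tested.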

How the data were processed

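Single FB-labelled colonic neurons were sequenced by Smart-seq2, which amplifies cDNA without molecular identifiers, so reads and not molecules were counted. Per the labels, the authors used bcl2fastq 2.15.0.4, STAR 2.4.1 and featureCounts 1.4.4 with GRCm38.p3. The deposited values were log2(x + 1), where x is reads per gene length times a factor of the neuron. The sum of x ran from 218865 to 11159067 between neurons, so x was rescaled to 1000000 in each, which gives TPM. The other 74 labelled neurons and 13 bath controls were not analysed here.

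Whole reads were recovered with a tolerance of 1e-09, from GENCODE M21 exonic lengths for 26057 genes (65.0% of values above 0) and otherwise from the smallest length that gave whole reads in every neuron, so depths are minimum estimates. On simulated data for LS against TL reference neurons (12000 genes), 99.99% of values were recovered and 97 of 100 genes set 8-fold higher were called. Those genes were drawn from well-covered ones and shared the same dispersion, whereas the members were at 0 in many neurons. The simulation therefore does not measure how often genes like the members are called.

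Presence was 10 TPM or more. Ratios of means had a pseudocount of 1 and were called at 4-fold among genes with a mean of 10 or more in either group. Intervals are exact Clopper-Pearson 95% intervals (scipy 1.17.1, pandas 2.3.3, Python 3.11.15), and a count of 0 allows 3 divided by n. Symbols for coordinates came from GENCODE M21 and promoters from RefSeq on GRCm38.p6. Doublets were not called, as neurons were picked singly. Genes named are the members, up to 4 genes of each pathway list with a mean of 10 and the largest ratio, genes whose products act directly on a member's product, and the first 10 and last 5 by rho. Marker genes come from 11 cell type lists. Some genes of the lists are not reported here. Stc1 was named outside these rules. Rasd2 to Meox2 are described as examples, and the genes of the TL neuron high in Ctla2a were named after its values had been seen. The members and lists were chosen with earlier results of these data known. In all, 21 other settings were tried, and 1 more was chosen after seeing the data.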

Additional observations from a re-analysis of the deposited data

How the results depend on the processing

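Of 340 shares recomputed for the members and for 5 or more of 9 members, 320 stayed within the counting interval of the reported share, and in all 170 pairs of LS and TL shares the LS share was higher. With a threshold of 5 TPM, Igf1 was present in 56.9% of LS reference neurons, and with 20 in 24.6%, Col11a1 in 43.1% of LS and 3.64% of TL, and Dgkb and Gper1 in 0% of TL. Igf1 was present in 29.2% of LS without rescaling, and in 57.5% with CPM of recovered reads, which are not relative to gene length and gave 73 LS and 66 TL reference neurons. It was also 57.5% with reads thinned to 400000 and a threshold of 4 reads, likewise without gene length (73 LS and 65 TL). In TL reference neurons Igf1 was present in 10.6% with CPM, Col11a1 in 22.7% with CPM and 26.2% with thinned reads, and Dgkb in 16.7% and 20.0%. Igf1 was at 0% in TL with Piezo2 at 50 or more, with Gfra3 below 2, without neurons under 9500 genes, without neurons with 2 endothelial genes and without plate 2, since these left out its only neuron. Ctla2a was at 0% in TL with Piezo2 at 50 or more and without neurons with 2 endothelial genes, and Gper1 without plate 5. For Ctla2a the log2 ratio of LS to TL turned from -0.54 to 5.62 with Piezo2 at 50 or more, 5.00 without neurons under 9500 genes, 5.44 without neurons with 2 endothelial genes, 2.69 without plate 3 and 2.80 without the single TL neuron, an alternative chosen after seeing the data. All 144 ratios of the other members stayed above 0, the lowest being 1.00 for Igf1 with a pseudocount of 10, but 13 moved by more than the SD between plates. The log2 ratio of Uts2b, 11.13 as reported, was 9.45 with CPM, 8.14 with thinned reads, 14.21 with a pseudocount of 0.1 and 7.85 with 10, so its size depends on these choices. That of Blnk, 5.66 as reported, was 6.74 with CPM, 8.78 with a pseudocount of 0.1 and 2.59 with 10, and that of Hpse, 4.74 as reported, was 6.06 and 2.21 with the same pseudocounts. With a pseudocount of 10 it was 1.11 for Col11a1, 2.04 for Dgkb and 2.32 for Gper1. Igf1 and Col11a1 were then less than 4-fold higher in LS. With a mean of at least 1, or no filter, 183 genes were 4-fold higher in LS in place of 114. No paired test was run because LS and TL count as 1 sample each. The ratios within the shared plates stand in the report as a description. A call of Ctla2a rested on as few as 5 reads.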

Other observations

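The 24 LS reference neurons without Uts2b were not alike in other genes. Trpv1, the capsaicin receptor, was present in 11 of them with values up to 1440 TPM and a mean of 340 ± 476 (SD), against 16 of 41 and a mean of 94.5 ± 203 with Uts2b. Gfra2, a co-receptor for neurturin, was present in 4 of 24 and in 0 of 41, and Ntrk3, the receptor for NT-3, in 3 of 24 and 0 of 41. Nsg1, a close relative of Nsg2, went the other way from it, with a median of 191 TPM (0.886 to 317) with Uts2b and 36.7 (0 to 265) without. These genes were chosen after their values had been seen.

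C1qb was present without its partners. Its mean was 23.5 TPM in LS reference, 62.4 in remaining LS, 2.14 in TL reference and 38.3 in remaining TL neurons, whereas C1qa and C1qc, which encode the other chains of the same complement protein, had means of 0.161 and 0.0609 in LS reference neurons.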
